A study of Mus musculus with 10 samples.

Results

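The collagen genes of mouse skeletal muscle were followed in total RNA and in RNA recovered with an antibody against IMP2, the mRNA-binding protein encoded by Igf2bp2. The members were all protein-coding genes whose symbol is Col, a number, a and a number, which gave 44 genes of 43629 in the count files. By the class of the encoded chain, 11 are fibrillar, 6 belong to the basement membrane (type IV), 6 to the beaded filaments (type VI) and 21 to other classes. The 10 libraries were 3 of wild-type (WT) total RNA, 3 of knockout (KO) total RNA, 2 of WT immunoprecipitated RNA (IP) and 2 of KO IP. All came from skeletal muscle of male C57BL/6 mice aged 6 weeks that had spent 2 weeks on HFD, so the diet was shared by every group. The sample labels give the knockout genotype as an IMP2 null, whereas the series text speaks of a muscle-specific knockout. In the sources used here, the driver of the deletion, the deleted exons and any pooling of muscles are not given. The labels do not tie each library to an animal of its own. The p-values therefore measure the spread among these libraries alone, and some of it may be technical.

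Igf2bp2 was counted at a low level under both labels. It stood at 2.51, 2.86 and 3.35 CPM (counts scaled to library size with TMM factors) in WT total RNA. In KO total RNA it stood at 2.52, 1.88 and 2.47 CPM. The IP values were 11.8 and 1.56 CPM under the WT label, and 8.65 and 5.19 CPM under the KO label. The groups overlapped in both kinds of RNA, so these counts did not separate the labelled genotypes (total RNA, KO minus WT, log2 difference -0.36 ± 0.28 SE, edgeR quasi-likelihood test, adjusted p = 0.897). WT and KO are used below as the names on the labels. Depth was 9691580 to 14809788 gene counts in total RNA and 917462 to 4037480 in the IP, and the 8 muscle fibre markers summed to at least 54757 CPM in every library. 4 libraries stood apart in their markers. The third WT total RNA library had a muscle fibre marker sum of 97478 CPM against 169269 to 230387 CPM in the other total RNA libraries. The first KO total RNA library held 2070.0 CPM of pancreas markers, where the other 5 total RNA libraries held 0.692 to 1.23 CPM. In the IP these markers stood at 40.4 and 298 CPM in WT and at 324 and 124 CPM in KO. The second WT total RNA library held 977 CPM of adipocyte markers against 289.9 to 486 CPM. Its Ucp1 level was 225 CPM, against 0.0989 to 0.235 CPM in KO total RNA but 42.3 and 20.1 CPM in the KO IP. Each IP group thus held transcripts near 0 in the total RNA of its own label. This limits every comparison with the IP, and its source was not tested. The first KO IP library, the shallowest of all, held 1136 CPM of tendon markers against 331 to 488 CPM in the other 3 IP libraries.

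Collagens are the main proteins of the extracellular matrix. Each is built from chains that wind around each other in groups of a fixed size, and the winding requires a glycine at regular intervals along the chain. In muscle, fibrillar types I, III and V form the fibres of the connective tissue around fibres and fascicles. Type IV forms the network of the basement membrane that wraps every muscle fibre, type VI forms beaded filaments beside it, and types XV and XVIII are proteoglycan collagens of the basement membrane zone. Fibroblasts are the known main source of fibrillar and type VI collagen in muscle, and endothelial cells and muscle fibres also make type IV.

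The repeat that defines the family is visible in the coding sequence. The 60 coding bases at the start of the longest glycine run are shown for the chains on which the results below turn. They read 5′ to 3′ on the coding strand, with the glycine codon (GGN) that opens each unit of the repeat in capitals. Glycine codons elsewhere in a unit, as in Col3a1, are in lower case. The bases are spliced from the GENCODE M21 exons on the GRCm38 genome, and each span also covers the introns between the exons named.
Col1a1 (type I; chr11:94939451-94939909, plus strand, exons 6 to 8): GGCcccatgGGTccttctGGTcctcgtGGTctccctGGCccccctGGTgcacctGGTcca
Col3a1 (type III; chr1:45323762-45325383, plus strand, exons 5 and 6): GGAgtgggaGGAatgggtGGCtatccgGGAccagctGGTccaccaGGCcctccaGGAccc
Col4a1 (type IV; chr8:11212722-11213549, minus strand, exons 42 and 43): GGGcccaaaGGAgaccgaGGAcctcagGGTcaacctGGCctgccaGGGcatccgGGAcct
Col6a1 (type VI; chr10:76719653-76720996, minus strand, exons 8 and 9): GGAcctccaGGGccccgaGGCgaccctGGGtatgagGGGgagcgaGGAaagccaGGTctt
Col15a1 (type XV; chr4:47270324-47270917, plus strand, exons 13 and 14): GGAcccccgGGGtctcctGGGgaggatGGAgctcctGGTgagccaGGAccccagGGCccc
Col7a1 (type VII; chr9:108978632-108978844, plus strand, exons 102 and 103): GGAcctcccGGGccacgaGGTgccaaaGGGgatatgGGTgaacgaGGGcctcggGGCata
The coding sequence of all 44 members held an unbroken run of at least 10 such units, a property of 95 of 21174 coding genes (0.449%). The longest run had 344 units in Col3a1 and 338 in Col1a1, against 66 in Col4a2 and 40 in Col4a1, where the repeat is interrupted many times. It had 87 units in both Col6a1 and Col6a2, 75 in Col7a1, 30 in both Col15a1 and Col18a1, and 23 in Col26a1, the shortest. Runs of at least 10 units filled 73.3% of the codons of Col1a1 but 29.6% of those of Col6a1 and 15.8% of those of Col15a1. Shorter runs are left out of these shares.

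Several members are neighbours. Col4a1 and Col4a2, whose products form a joint network, start head to head on chromosome 8, and their annotated exons overlap on opposite strands by 22 bases (RefSeq, GRCm38.p6, chr8:11312805-11312826, plus strand): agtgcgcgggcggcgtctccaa. This stretch is shown because reads inside it cannot be given to either gene without strand, although it is short against exons of several kilobases. Col4a3 and Col4a4 also lie head to head, on chromosome 1, and Col6a1 and Col6a2 lie side by side on chromosome 10. Col9a3 shares 234 exonic bases with Tcfl5 on the other strand, and Col4a3 shares 563 with C430014B12Rik. In the sources used here the strand setting of the counting is not given, and the values of Col9a3 and Col4a3 are uncertain.

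Levels are compared between genes as CPM per kilobase of exon (CPM per kb). In WT total RNA the order was led by Col3a1 at 149 and Col1a1 at 146 CPM per kb on average, then Col1a2 at 96.1, Col4a1 at 70.9, Col4a2 at 52.4, Col6a1 at 41.8 and Col6a2 at 19.7. On this length Col3a1 and Col1a1 did not differ beyond their spread, and which of them led changed between libraries. Col5a1, Col5a3, Col6a3, Col5a2 and Col15a1 followed within a narrow band from 17.6 down to 13.2 CPM per kb, in which the order was also within the spread. With the length of the longest coding transcript in place of all exons, a choice made after the data were seen, Col3a1 stood at 263 and Col1a1 at 162 CPM per kb, Col3a1 was above Col1a1 in all 6 total RNA libraries (1.14-fold to 1.88-fold), and Col1a2 moved ahead of Col1a1 to the place after Col3a1. At the other end, Col4a6, Col6a4, Col10a1, Col19a1 and Col25a1 had at most 30 counts each over all 10 libraries and could not be tested in any comparison.

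**Figure D1:**
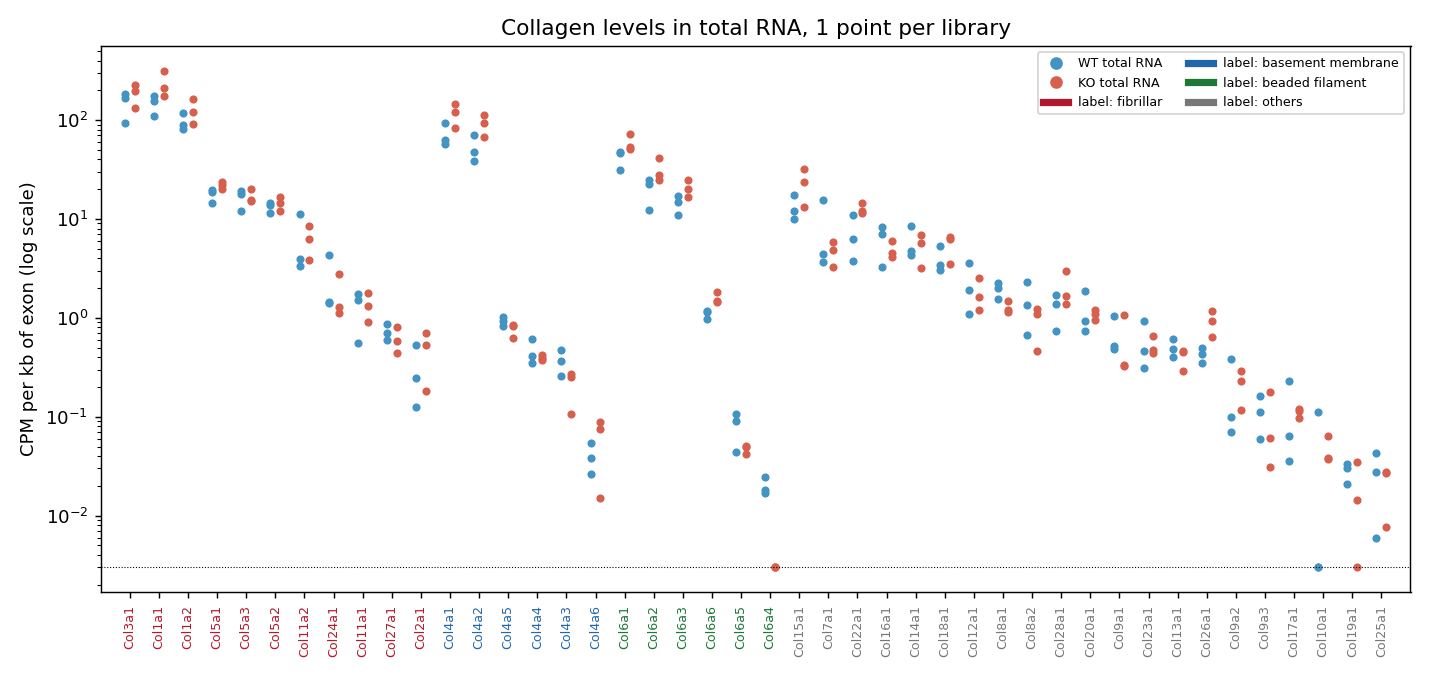
Level of each of the 44 collagen genes in total RNA, in CPM per kb of exon on a log axis, with 1 point per library (3 WT, 3 KO), ordered within each class by the WT mean. Points on the dotted line are libraries with 0 counts. Types I and III and the a1 and a2 chains of type IV stand at the top, and the WT and KO points of most genes intermingle.

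Types I and III together made up 44.2% to 60.7% of all collagen CPM per kb in the 6 total RNA libraries, and the a1 and a2 chains of type IV made up 14.4% to 28.6%. The a1 to a3 chains of type VI took 9.67% to 11.7% in total RNA but 18.1% to 23.4% in the 4 IP libraries. The ranges of type VI did not overlap between the kinds of RNA, nor did they with transcript length (8.55% to 10.7% and 15.7% to 21.3%). Col6a1 was the third collagen of every IP library by CPM per kb of exon, after Col1a1 and Col1a2, and the fourth with transcript length, where Col3a1 came before it. It was among the leading 4 of no total RNA library with either length. As a share of all gene counts, collagens took 0.548% to 0.782% of total RNA, 0.834% and 1.11% of the WT IP, and 1.79% and 1.88% of the KO IP.

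The comparison of KO with WT total RNA asked whether collagen transcripts change when IMP2 is lost from muscle. Of the 44 members, 35 passed the filter on low counts, and 0 passed the test at an adjusted p of 0.05 (edgeR quasi-likelihood test), which was also true of 0 of all 13169 genes tested (0.00% called). DESeq2 called 0 members and 5 genes in all. At an unadjusted p under 0.05 there were 10 members, 9 of them higher and 1 lower in KO, where 4.32% of all genes tested met that limit. The median log2 difference (KO minus WT) was 0.06 over the tested members and -0.01 over all genes, with 19 members above 0 (48.0% of all genes) and 16 below. With library size alone as the scaling, the median of all genes moved to -0.23 and that of the members to -0.19, with 16 above 0 and 19 below. Without the third WT library the median of the members was 0.28, and without the first KO and the second WT library it was 0.14, with 0 members called in either case.

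By the class median of the log2 differences, the type VI chains stood highest. By summed level the basement membrane class rose more, from a mean of 125 CPM per kb in WT to 209 in KO, with overlap. The type VI means were 76.9 and 112 CPM per kb. All 4 tested type VI genes had values above 0, with a median log2 difference of 0.52. Their summed level was 85.3, 90.2 and 55.3 CPM per kb in WT and 93.0, 102.9 and 141 in KO. These groups did not overlap, the third WT library being the lowest and the third KO library the highest, but with library size alone as the scaling they did, at 64.5 to 83.9 in WT against 79.8 to 112 in KO. Col6a1 stood at 205, 208 and 135 CPM in WT and at 221, 235 and 320 CPM in KO (log2 difference 0.49 ± 0.22 SE, adjusted p = 0.897; 0.33 without the third WT and 0.32 without the third KO library). Every KO library was above every WT library, as it was for Col6a6 (10.8, 8.95 and 10.4 CPM in WT, 13.3, 13.4 and 16.6 CPM in KO). Col6a2 and Col6a3, the partners of Col6a1 in the type VI monomer, overlapped between groups at 102 to 204 CPM and 132 to 203 CPM in WT against 204 to 347 CPM and 198 to 297 CPM in KO.

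In the basement membrane class the common pair and the rare chains had opposite signs. Col4a1 stood at 469, 692 and 426 CPM in WT and at 625, 1095 and 897 CPM in KO (log2 difference 0.72 ± 0.26 SE). Col4a2 stood at 312, 471 and 257 CPM in WT and at 442, 741 and 615 CPM in KO (log2 difference 0.78 ± 0.27 SE). The second WT library and the first KO library overlapped in both genes, and the counts of Col4a1 and Col4a2 kept a ratio of 1.42 to 1.66 in all 6 total RNA libraries. Col4a3, Col4a4 and Col4a5, the chains of specialised basement membranes, were far lower, at 1.06 to 6.84 CPM in these libraries, and had log2 differences of -0.80, -0.20 and -0.27.

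Of the 11 fibrillar genes 8 were above 0 and 3 below, with a median log2 difference of 0.11 (5 above 0 and a median of -0.11 with library size alone). Col1a1 stood at 1142, 1028 and 714 CPM in WT and at 1390.5, 1159.6 and 2068 CPM in KO, without overlap (log2 difference 0.68 ± 0.26 SE, unadjusted p = 0.0305, adjusted p = 0.897). Its partner Col1a2 overlapped, at 1476, 1101 and 1006 CPM in WT and 1514, 1142 and 2011 CPM in KO (log2 difference 0.38 ± 0.25 SE). Col3a1 also overlapped, at 1659, 1815 and 909 CPM in WT and 1929, 1292 and 2211 CPM in KO (log2 difference 0.31 ± 0.30 SE). Leaving out 1 library moved this value between 0.07, without the third WT library, and 0.51, without the second. Without the third KO library Col1a1 was 0.41 and Col1a2 0.16. Type V, which regulates the diameter of collagen fibrils, had smaller values: log2 differences were 0.31 for Col5a1, 0.11 for Col5a2 and 0.04 for Col5a3.

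Among the other classes 5 of 15 tested genes were above 0. Col26a1 had the smallest p of all members, at 2.86, 4.01 and 3.56 CPM in WT and 5.29, 7.52 and 9.51 CPM in KO (log2 difference 1.09 ± 0.27 SE, unadjusted p = 0.00299, adjusted p = 0.897). Col8a1, a short-chain collagen that forms networks around vessels, was the single member with an unadjusted p under 0.05 and a lower level in KO, at 17.7, 12.2 and 15.7 CPM in WT and 9.49, 9.0 and 11.5 CPM in KO (log2 difference -0.61 ± 0.20 SE, unadjusted p = 0.0134). The groups of both genes did not overlap. Col15a1 stood at 63.3, 112 and 75.9 CPM in WT and at 84.5, 204 and 152 CPM in KO, and the second WT library was above the first KO library. Col22a1, a collagen of the myotendinous junction, had every KO library above every WT library, at 34.4, 101 and 57.8 CPM in WT and 111, 133 and 105 CPM in KO. In all, 6 tested members had groups that did not overlap and were higher in KO, and 1 was lower, where 5.06% and 4.56% of all genes were.

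**Figure D2:**
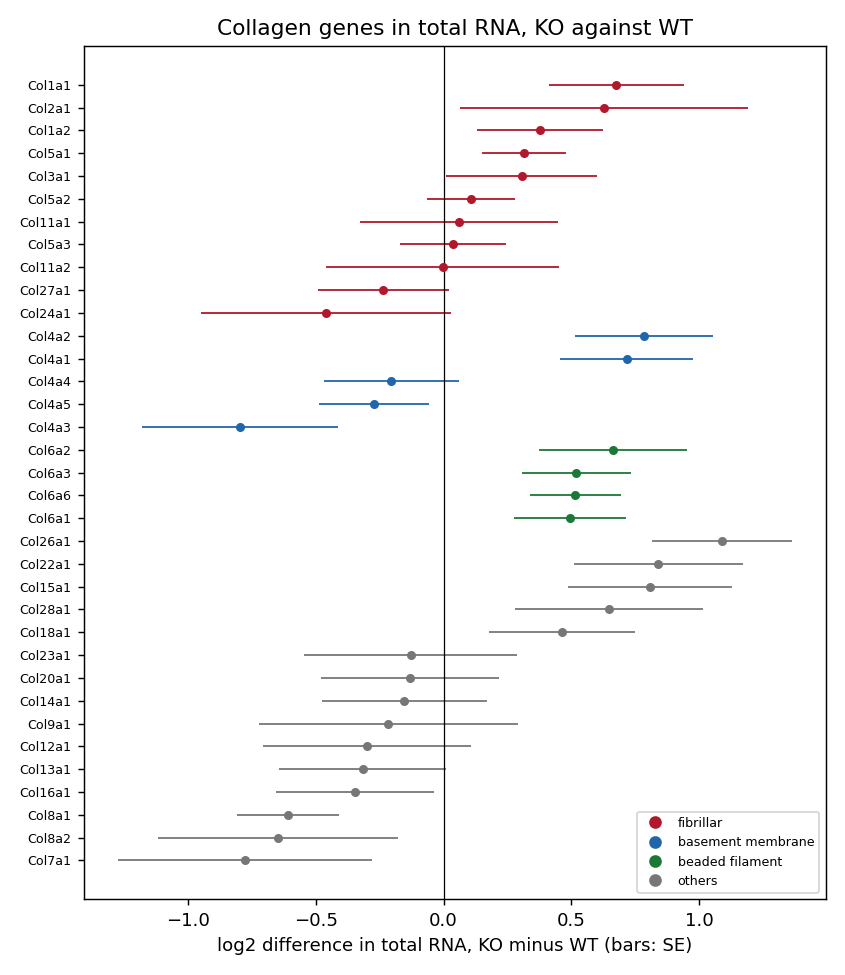
Log2 difference in total RNA, KO minus WT, with its standard error, for the 35 tested collagen genes, coloured by class. All 4 type VI genes lie above 0, Col26a1 lies highest within the other classes at 1.09, and 0 of the 35 passed the test.

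Markers of other cells varied beside these values. Smooth muscle and pericyte markers were above 0 for 6 of 6 genes (median log2 difference 0.53, summed level 567 to 712 CPM in WT and 757 to 1061 CPM in KO). Endothelial markers were above 0 for 6 of 6 (0.26, summed 505 to 583 CPM in WT and 572 to 804 CPM in KO), and Schwann cell markers for 4 of 5 (0.48). Fibroblast markers were above 0 for 3 of 8 (-0.03) and muscle fibre markers for 7 of 8 (0.28). Tendon markers were above 0 for 4 of 8 (-0.01), adipocyte markers for 0 of 5 tested (-0.68) and macrophage markers for 0 of 5 (-0.15). Their part in the collagen values was not tested, and in bulk RNA a change in the number of cells of a type and a change in RNA per cell cannot be told apart. Col7a1, the anchoring fibril collagen, shows how much a library can weigh: the third WT library, the one low in muscle fibre markers, had 160 CPM, and the other 5 total RNA libraries had 33.7 to 59.7 CPM.

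Genes that fold, process, cross-link, degrade or bind collagen were taken as a list of 52 symbols. In total RNA 0 of 47 tested were called, with 32 above 0 and a median log2 difference of 0.14. The smallest p-values belonged to Mrc2, a receptor that takes up collagen for degradation (0.38 ± 0.17 SE), Sparc, a collagen-binding matrix protein (0.51 ± 0.26 SE), Pcolce2, an enhancer of procollagen cleavage (-0.62 ± 0.36 SE) and Ppib, a prolyl isomerase of the folding machinery (0.41 ± 0.24 SE). All 4 overlapped between groups.

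The IP of WT muscle was set against the IP of KO muscle, the labelled control for the antibody. Of 31 tested members, 29 had a level in the WT IP below that in the KO IP, where 50.9% of all genes tested did, and none of these differences passed the test. The median log2 difference (WT minus KO) was -0.61 over the members and -0.01 over all genes. The test called 0 of the 31 members and 0 of all 10730 genes (0.00%, edgeR quasi-likelihood test). At an unadjusted p under 0.05 there were 10 members, all lower in WT, where 10.5% of all genes met that limit in either direction. The groups of 21 of 31 members did not overlap, all 21 lower in WT, where 20.5% of all genes were.

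The fibrillar class was below 0 for 11 of 11 genes, with a median of -0.83. Col1a1 stood at 2102 and 1418 CPM in the WT IP and at 3856 and 3369 CPM in the KO IP (log2 difference -1.05 ± 0.25 SE, adjusted p = 0.178). Col1a2 stood at 2515 and 1989.6 CPM in WT and at 5136 and 4262 CPM in KO (-1.07 ± 0.24 SE, adjusted p = 0.152). Col3a1 stood at 1204 and 916 CPM in WT and at 1857 and 1881 CPM in KO (-0.83 ± 0.23 SE, adjusted p = 0.248). Each KO IP library was above each WT IP library in all 3 genes. DESeq2 called these 3 and 57 genes in all, and edgeR without the filter on low counts called Col1a1, Col1a2 and Col7a1.

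Col7a1 had the smallest p of the members, with 20.6 and 21.8 CPM for WT against 78.8 and 46.7 CPM for KO (log2 difference -1.52 ± 0.32 SE, adjusted p = 0.119). The type VI genes were below 0 for 4 of 4 (median -0.63). Col6a1 stood at 781 and 584 CPM in WT and at 954 and 1153 CPM in KO, again without overlap. The 3 tested type IV genes were below 0 too. Col4a1 stood at 592 and 651 CPM in WT and at 666 and 897 CPM in KO (-0.34 ± 0.23 SE), and Col4a2 overlapped at 513 and 594 against 529 and 610.1 CPM (-0.05 ± 0.22 SE). The sparser Col4a4 had a log2 difference of -0.77 ± 0.56 SE. Leaving out any of the 4 IP libraries gave 2 or 3 called members with a sign below 0. Without the second KO library, the deepest of the 4, the median over the members was -0.38.

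Fibroblast markers were below 0 for 8 of 8 genes in the same comparison (median -0.59, summed level 2149 and 2215 CPM in WT and 2595 and 2931 CPM in KO), Schwann cell markers for 4 of 4 (-0.59) and endothelial markers for 6 of 6 (-0.48). Tendon markers were below 0 for 6 of 7 (-1.24, summed level 432 and 331 CPM in WT and 1136 and 488 CPM in KO), where the first KO IP library stood apart. Muscle fibre markers were above 0 for 5 of 8 (0.18), adipocyte markers for 4 of 5 (0.25) and macrophage markers for 3 of 5 (0.26). Smooth muscle and pericyte markers were above 0 for 2 of 6 (-0.06) and pancreas markers for 0 of 3 (-0.36). Their part in the collagen difference was not tested. Of the processing list 33 of 42 tested genes were below 0 (median -0.35) and 0 were called. The smallest p-values belonged to P3h3, a prolyl 3-hydroxylase (-1.22 ± 0.34 SE), Bmp1, a procollagen C-proteinase (-0.95 ± 0.29 SE), the collagen receptor subunit Itga1 (-1.17 ± 0.40 SE) and Sparc (-0.65 ± 0.23 SE), and the groups of none of the 4 overlapped.

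**Figure D3:**
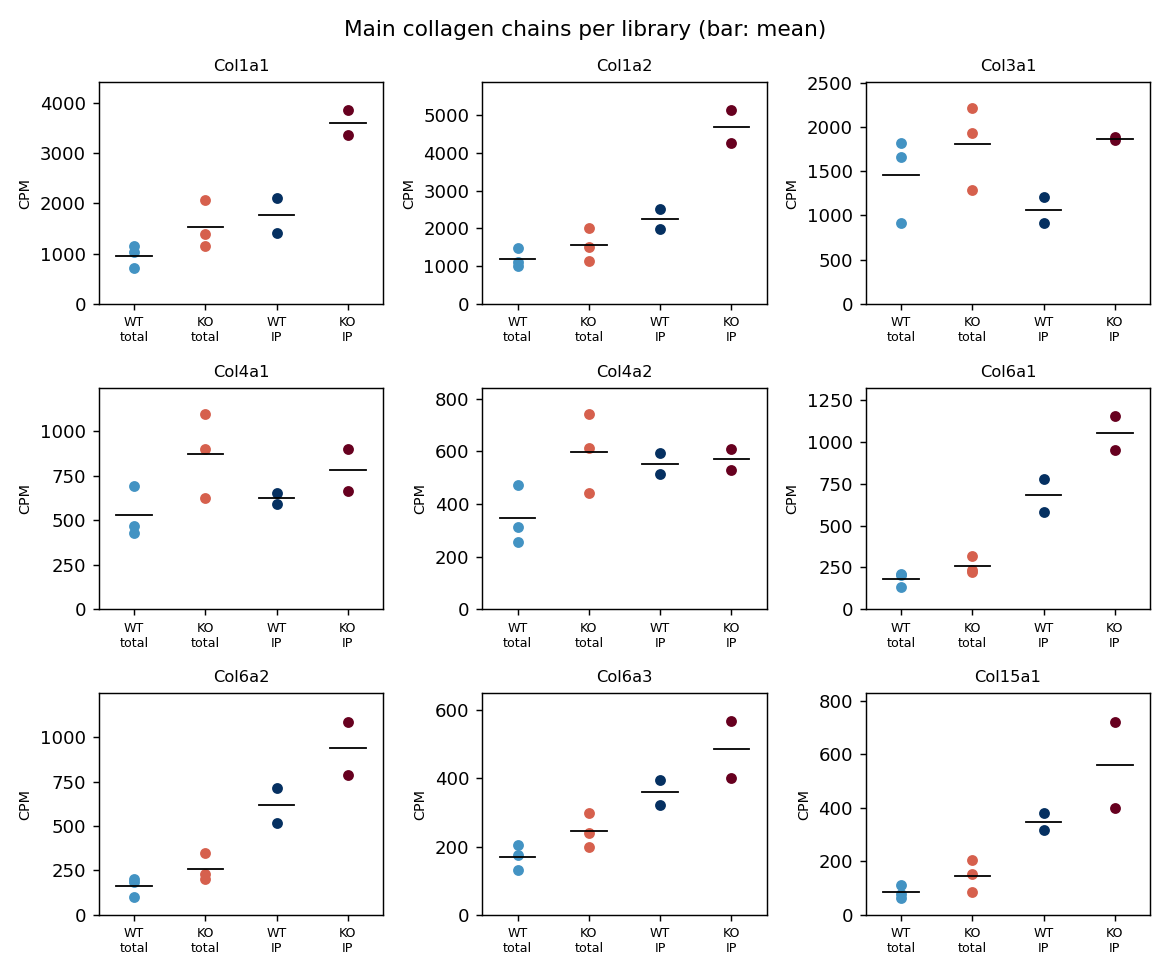
CPM per library of 9 main collagen chains in WT total RNA (3 libraries), KO total RNA (3), WT IP (2) and KO IP (2), with a bar at each group's mean and axes that start at 0. Col1a1 and Col1a2 have their highest values in the KO IP, and Col3a1 and Col4a1 overlap between the kinds of RNA. Col6a1, Col6a2, Col6a3 and Col15a1 are higher in all 4 IP libraries than in any total RNA library.

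The IP was then compared with total RNA within each genotype, in a fit of all 10 libraries. In WT 16 of 39 tested members passed the test, where 37.0% of all 14399 genes did. Higher in the IP were 11 members (17.6% of all genes) and lower were 5 (19.4%). In KO 14 of 39 passed (36.5% of all genes), all 14 higher (17.7%) and 0 lower (18.8%). At an unadjusted p under 0.05, 18 members were higher and 0 lower in KO (46.3% of all genes in either direction). The median log2 difference (IP minus total RNA) was 0.23 over the members and -0.05 over all genes in WT, and 0.74 against 0.03 in KO. Above 0 were 23 members in WT (48.3% of all genes) and 29 in KO (51.4%). Of the 11 members called higher in WT, 10 were also called higher in KO, which is 90.9% of the WT list and 71.4% of the KO list. These 10 genes were Col1a1, Col1a2, Col5a3, Col6a1, Col6a2, Col6a3, Col6a6, Col8a1, Col15a1 and Col26a1.

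Type VI was higher in the IP as a class. Of its 5 tested genes 4 were called higher in WT and the same 4 in KO, with medians of 1.52 and 1.85. Col6a1 rose from 135 to 208 CPM in WT total RNA to 781 and 584 CPM in the WT IP (log2 difference 1.90 ± 0.25 SE, adjusted p = 7.86e-05). It rose from 221 to 320 CPM in KO total RNA to 954 and 1153 CPM in the KO IP (2.03 ± 0.25 SE, adjusted p = 5.43e-05). Col6a2 rose from 102 to 204 CPM to 712 and 519 CPM in WT (1.91 ± 0.31 SE) and from 204 to 347 CPM to 789.8 and 1085 CPM in KO (1.85 ± 0.31 SE). Col6a3, the long chain of the monomer, rose less, by 1.07 ± 0.25 SE in WT and 0.99 ± 0.25 SE in KO, where its call was lost without the second KO IP library (0.70, adjusted p = 0.139). Col6a6 rose by 0.70 and 0.85. For Col6a1, Col6a2, Col6a3 and Col15a1 every IP library was above every total RNA library.

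Col15a1 rose in both genotypes too. It stood at 318 and 379 CPM in the WT IP against 63.3 to 112 CPM in WT total RNA (2.06 ± 0.34 SE, adjusted p = 0.000431), and at 401 and 719 CPM in the KO IP against 84.5 to 204 CPM (1.94 ± 0.34 SE, adjusted p = 0.000672). Its relative Col18a1, whose C-terminal fragment is endostatin, rose in WT (1.18 ± 0.29 SE, adjusted p = 0.00657; 0.0577 without the first WT IP library) and stood just outside the threshold in KO (0.78 ± 0.30 SE, adjusted p = 0.0538). Col8a1 rose in both genotypes, by 0.81 ± 0.25 SE in WT and 1.58 ± 0.25 SE in KO. Col26a1 rose by 1.54 in WT and 1.46 in KO, but the WT value rested on the second WT IP library, which held 17.1 CPM against 2.94 CPM in the other, and without that library it was -0.32.

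The fibrillar chains were divided. Col1a2 rose by 0.92 ± 0.27 SE in WT (adjusted p = 0.0169) and 1.59 ± 0.27 SE in KO (adjusted p = 0.000524). Col1a1 rose by 0.87 ± 0.29 SE in WT (adjusted p = 0.0292) and 1.23 ± 0.29 SE in KO (adjusted p = 0.00465). Both WT calls were lost without the first WT IP library (adjusted p = 0.271 for Col1a1 and 0.14 for Col1a2) and without the KO library rich in pancreas and the WT library rich in adipocyte markers (0.0554 and 0.0647). The Col1a1 call was also lost without the third WT total RNA library (adjusted p = 0.0677). Col3a1, which is laid down in the same fibres, did not pass in either genotype, with -0.46 ± 0.31 SE in WT (adjusted p = 0.255) and 0.05 ± 0.30 SE in KO (adjusted p = 0.925). It was called lower in WT with the replicate number as a block (-0.72, adjusted p = 0.000774) and without the third WT total RNA library (-0.71, adjusted p = 0.0446). Col5a3 rose in both (1.01 ± 0.23 SE and 1.12 ± 0.23 SE), whereas its type V partners Col5a1 (0.19 and 0.32) and Col5a2 (-0.11 and 0.13) did not pass. Col27a1 was called in KO (1.45 ± 0.33 SE, adjusted p = 0.0040) and stood at 0.82 ± 0.33 SE in WT (adjusted p = 0.0678).

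The common type IV pair did not pass in either genotype. Col4a1 stood at 0.23 ± 0.27 SE in WT and -0.16 ± 0.28 SE in KO (0.26 with library size alone). Col4a2 stood at 0.68 ± 0.27 SE in WT (adjusted p = 0.0648, and 0.53 with an adjusted p of 0.0206 under the replicate block; also called with DESeq2, with library size alone, without the low-count filter and without the second WT total RNA library) and at -0.07 ± 0.28 SE in KO (0.35 with library size alone). Col4a4 was called in KO, where it stood at 7.69 and 13.1 CPM in the IP against 3.99 to 4.45 CPM in total RNA (1.39 ± 0.36 SE, adjusted p = 0.00861).

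**Figure D4:**
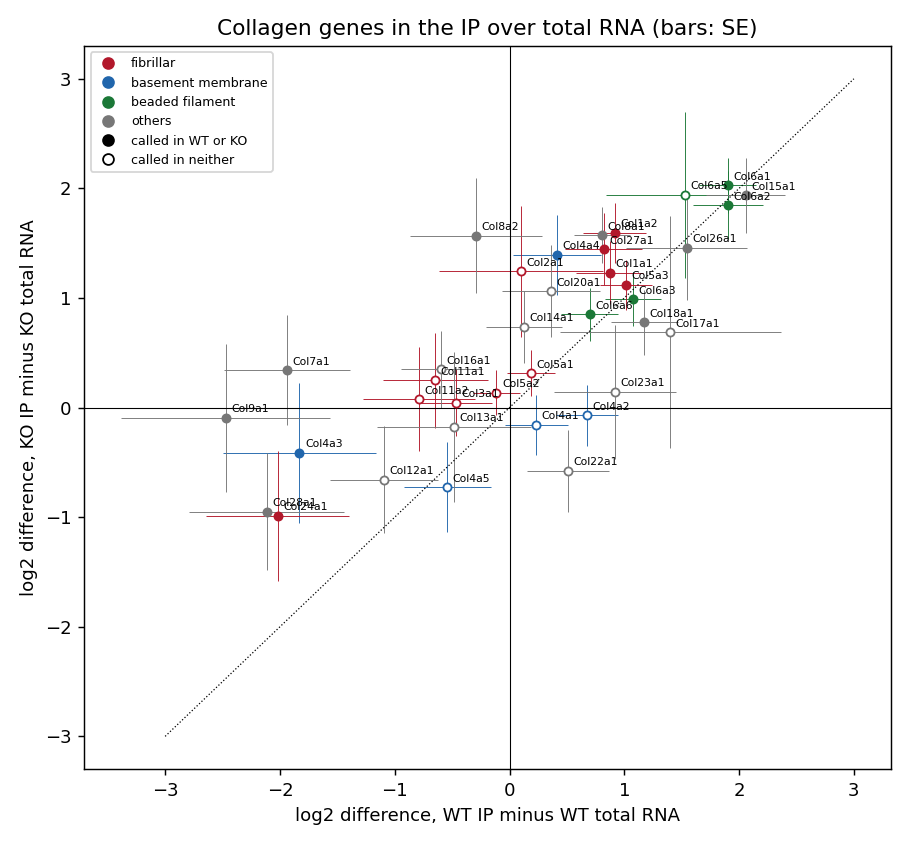
Log2 difference between IP and total RNA in WT (x axis) and in KO (y axis) with standard errors, for 37 collagen genes coloured by class; Col9a2 and Col9a3, with 0 counts in both WT IP libraries, are left out. The type VI genes and Col15a1 lie high near the dotted line of equal values, the a1 and a2 chains of type IV lie nearer 0 while Col4a3 lies to the left and Col4a4 high, and Col7a1 and Col9a1 lie far to the left of it.

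The 5 members called lower in the WT IP were Col9a1, Col28a1, Col24a1, Col7a1 and Col4a3. Each of these 5 calls was lost when at least 1 of the 5 WT libraries was left out. Col7a1 stood at 20.6 and 21.8 CPM in the WT IP against 38.1, 45.7 and 160 CPM in WT total RNA (-1.94 ± 0.55 SE, adjusted p = 0.0132). Col24a1 stood at 5.05 and 3.90 CPM against 10.7, 10.96 and 32.7 CPM (-2.02 ± 0.62 SE, adjusted p = 0.0205), and both genes peaked in the third WT library. Without that library Col24a1 was at -1.27 (adjusted p = 0.057) and Col7a1 at -0.98 (adjusted p = 0.0246). The Col7a1 call was lost without either WT IP library (adjusted p = 0.0872 and 0.0760). Col9a1 (-2.47 ± 0.91 SE, adjusted p = 0.0462) had 1 and 2 counts in the WT IP, and Col4a3 (-1.83 ± 0.67 SE, adjusted p = 0.0439) was at 0.84 and 1.17 CPM there. Both calls were lost under the replicate block (adjusted p = 0.101 and 0.172). Col28a1 stood at 2.52 and 0.39 CPM in the WT IP against 3.58 to 8.30 CPM (-2.12 ± 0.68 SE, adjusted p = 0.025), and its call was lost without the second WT IP library (adjusted p = 0.207).

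The type IX chains of cartilage fibrils were the sparsest members with a call. Col9a3 had 0 counts in both WT IP libraries, which allows up to 1.26 and 1.17 CPM there, and 3 and 13 counts in the KO IP. It was called higher in the KO IP than in KO total RNA (2.87 ± 0.83 SE, adjusted p = 0.0158), and the call was lost under the replicate block (adjusted p = 0.108), without the second KO IP library (0.175) and without the first KO total RNA library (0.0514). Cartilage and bone markers were near 0 in every library (summed 0.89 to 12.6 CPM for 8 genes). Col9a2 also had 0 counts in both WT IP libraries, and the WT median of the 37 members without this pair was 0.36. Col8a2 was called in KO (1.57 ± 0.53 SE, adjusted p = 0.0313).

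Leaving out 1 IP library changed the number of calls. In WT 8 members were called without the first WT IP library and 8 without the second, in place of 16. Without the third WT total RNA library 12 were called, 9 of them among the 16. In KO 7 were called without the second KO IP library, in place of 14. Under the replicate block the number called was 18 in each genotype, of which 13 were among those above in WT and 13 in KO.

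Ratios of raw counts of chains within a library are free of scaling between libraries. They show where chains parted, both within a collagen type and between types. Col3a1 over Col1a1 was 1.07 to 1.77 in the 6 total RNA libraries and 0.482 to 0.646 in the 4 IP libraries. Col6a3 over Col6a1 was 0.856 to 1.02 in total RNA and 0.420 to 0.550 in the IP. Neither pair of ranges overlapped, and both ratios were lower in the IP of each genotype. Col5a3 over Col5a1 was higher in the IP, at 1.08 to 1.38 against 0.516 to 1.05, and Col15a1 over Col18a1 was too, at 4.75 to 9.77 against 2.61 to 4.38. By contrast the ratio of Col1a1 to Col1a2 overlapped (0.710 to 1.03 in total RNA, 0.713 to 0.836 in the IP), as did that of Col6a1 to Col6a2 (0.921 to 1.33 and 1.06 to 1.21).

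**Figure D5:**
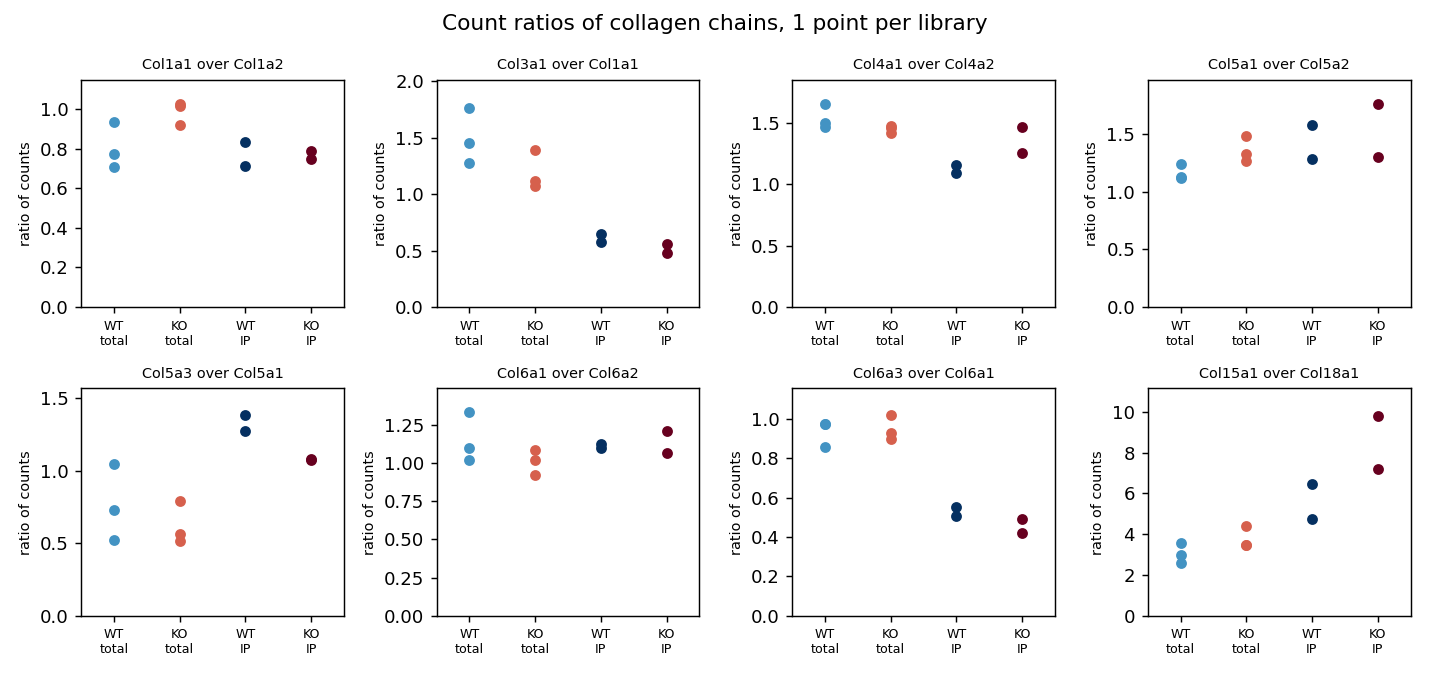
Ratio of raw counts between collagen chains in each library of the 4 groups, on linear axes that start at 0. Col3a1 over Col1a1 and Col6a3 over Col6a1 are lower in all 4 IP libraries than in any of the 6 total RNA libraries, and Col1a1 over Col1a2 and Col6a1 over Col6a2 overlap.

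The difference between IP and total RNA was also described against sequence. Across the 39 tested members, Spearman's rho with transcript GC content was 0.08 in WT and 0.26 in KO, and with transcript length 0.02 and -0.30. Over all 13116 genes with an annotated transcript it was 0.20 and 0.11 for GC content and -0.28 and -0.22 for length. With the share of codons in glycine runs, shown above to be high in types I and III and low in types VI and XV, rho was -0.37 in WT and -0.18 in KO. These are descriptions across genes, which are not independent replicates and share the same libraries.

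Markers moved between IP and total RNA as well. Of all genes, 17.6% were called higher and 19.4% lower in WT, and 17.7% and 18.8% in KO. Muscle fibre markers were called lower for 5 of 8 genes in WT and 7 of 8 in KO. Their sum was 74995 and 89634 CPM in the WT IP. In the KO IP it was 54757 and 74969.6 CPM. Fibroblast markers were called higher for 5 of 8 in each genotype (medians 0.89 and 1.11) and Schwann cell markers for 3 of 5 in each (1.45 and 1.61). Smooth muscle and pericyte markers were called higher for 4 of 6 in WT (median 0.71) and 2 of 6 in KO (0.31). Of 6 endothelial markers 2 were called higher and 1 lower in WT (0.35), and 3 higher and 0 lower in KO (0.60). Tendon markers were called higher for 1 of 8 in WT and 2 of 8 in KO. They were above 0 for 3 of 8 in WT (median -0.34) and for 7 of 8 in KO (0.88). Macrophage markers were above 0 for 5 of 5 in WT (0.82) and 4 of 5 in KO (0.67), and 0 were called. Adipocyte markers were above 0 for 3 of 6 in WT (0.05) and 5 of 6 in KO (0.72). Pancreas markers had the largest median in WT, 6.76, with 4 of 4 tested genes above 0 and 3 called higher. In KO, where the first total RNA library was rich in them, 0 of 4 were above 0 (-1.65) and 0 were called. Their part in the collagen values was not tested.

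The collagen-processing list was mixed in direction. In WT 17 of 50 tested genes were called higher (17.6% of all genes) and 6 lower (19.4%), with a median log2 difference of 0.52. In KO 23 were called higher (17.7%) and 5 lower (18.8%), with a median of 0.81. Of the 19 genes for synthesis and folding, 8 were called higher and 3 lower in WT, and 10 higher and 2 lower in KO. Those called higher in both genotypes included Fkbp10, a prolyl isomerase of the endoplasmic reticulum (2.28 ± 0.28 SE in WT, 2.14 ± 0.28 SE in KO), Serpinh1, the collagen chaperone HSP47 (1.08 and 1.26), and P4hb, a subunit of prolyl 4-hydroxylase (1.37 and 0.98). Those called lower in both were Colgalt1, which adds galactose to hydroxylysine (-1.70 ± 0.22 SE and -1.99 ± 0.23 SE), and the prolyl isomerase Ppib (-1.38 ± 0.35 SE, adjusted p = 0.00755, and -2.51 ± 0.39 SE, adjusted p = 0.000287). Of the breakdown genes, Mrc2 was called higher (1.35 and 1.52) and Timp3, a matrix-bound inhibitor of metalloproteinases, lower (-2.45 ± 0.25 SE and -2.23 ± 0.25 SE).

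The difference between the genotypes in IP over total RNA was tested as an interaction. Of the 39 members 0 were called, where 1 of 14399 genes was (0.00694%, edgeR quasi-likelihood test; 17 genes and 0 members with DESeq2). At an unadjusted p under 0.05 there were 4 members, all lower in WT, where 11.8% of all genes met that limit. The median (WT minus KO) was -0.43 over the members and -0.02 over all genes, with 28 of 39 below 0 (51.3% of all genes) and the fibrillar class below 0 for 11 of 11. Fibroblast markers were below 0 for 8 of 8 genes (median -0.48) and tendon markers for 7 of 8 (-0.98). Adipocyte markers were below 0 for 5 of 6 (-0.38) and endothelial markers for 4 of 6 (-0.20). Below 0 were 3 of 5 for Schwann cells (-0.05), 2 of 5 for macrophages (0.11) and 2 of 8 for muscle fibres (0.44). Smooth muscle and pericyte markers were below 0 for 0 of 6 (0.47) and pancreas markers for 0 of 4 (8.77). Their part in the collagen values was not tested. Col7a1 stood at -2.28 ± 0.74 SE (adjusted p = 0.342; -1.31 without the third WT total RNA library), Col8a2 at -1.86 ± 0.78 SE (adjusted p = 0.382) and Col8a1 at -0.77 ± 0.36 SE (adjusted p = 0.419), and Col9a3 is given above by its counts. Under the replicate block 3 members were called, namely Col1a2 (-1.02, adjusted p = 0.0196), Col3a1 (-0.97, adjusted p = 0.0374) and Col22a1 (1.21, adjusted p = 0.00851). Without the block Col1a2 stood at -0.68 ± 0.39 SE, Col3a1 at -0.51 ± 0.43 SE and Col22a1 at 1.09 ± 0.52 SE. The 5 type VI genes had values from -0.42 to 0.09, and with library size alone, which moved the median of all genes to -0.40, all 5 were below 0 (median -0.48). Of the processing list 0 of 50 were called. P3h3 (-1.02 ± 0.33 SE), Bmp1 (-1.09 ± 0.38 SE) and P4ha2, a subunit of prolyl 4-hydroxylase (-0.70 ± 0.29 SE), had the smallest p-values beside Itga2, a sparse integrin subunit.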

How the data were processed

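Counts of reads per gene were deposited by the authors for 10 libraries, made with a TruSeq kit per the labels' protocols. STAR, HTSeq and mm10 / GRCm38 are named in the submitters' processing notes; in the sources used here, versions, annotation release and strand setting are not given. Lines for reads given to no gene were left out of library sizes; reads placed at several sites were 26.1% to 43.3% of all, which can lower counts of genes with close copies. Ensembl IDs were given symbols from GENCODE M21 (42462 of 43629 matched), which also gave exons and coding sequences. The bases shared by Col4a1 and Col4a2 come from their RefSeq promoter entries.

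The whole table entered edgeR 4.0.16 (R 4.3.3): filterByExpr removed low counts, TMM set the scaling, and a two-sided quasi-likelihood F test with group as its only term was adjusted by Benjamini-Hochberg over all genes tested, at 0.05. The 6 total RNA libraries and the 4 IP libraries had a fit each, and IP was compared with total RNA in a fit of all 10. Standard errors come from the F statistic. CPM values use TMM factors of all 10 libraries. A count of 0 allows up to 3 counts, and this limit covers counting error only. The code was tested on simulated counts with 200 changed genes. In total RNA it recovered 47% of 2-fold and 96% of 4-fold changes, and between the IPs 21% and 75%. For IP against total RNA it recovered 16% and 68% in WT and 17% and 69% in KO. For the interaction it recovered 1% and 38%. A result of 0 called members therefore does not show that no member changed.

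The members and lists were chosen with earlier results of these data known. The named members were the main chains of types I, III, IV, V, VI and XV and, per comparison, up to 6 called members in each direction with the largest change, or the 4 with the smallest p where fewer than 4 passed; of the processing list, the 4 with the smallest p. Col22a1 and other members with few counts or with a call under another setting, and the pathway genes P4hb, Serpinh1 and, for IP against total RNA, Ppib were named after their values were seen. Alternatives were other scalings, no low-count filter, DESeq2 1.42.0, a replicate block, the libraries of 1 genotype alone, and leaving out libraries.

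Deviations of same-numbered IP and total RNA libraries correlated at 0.130 and 0.117 in WT and at 0.146 and 0.173 in KO. With 2 IP libraries per group the deviations mirror each other, so the values of a genotype are not independent. WT and KO total RNA libraries of different numbers reached 0.419 and -0.390. These correlations therefore cannot show a shared animal, which the labels do not state either. The replicate block between IP and total RNA assumes this pairing, and its calls depend on it.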

Additional observations from a re-analysis of the deposited data

How the results depend on the processing

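In total RNA 0 collagen genes were called under every alternative run, and of 168 recomputed values for 14 named genes 1 changed sign (Col5a2, -0.11 with library size alone). Between the IPs, 3 members were called without the low-count filter, 3 with DESeq2 and 1 with the replicate block (Col7a1), and 2 to 3 when any IP library was left out; the median ranged from -0.65 to -0.38 on leaving out a library, and Col4a2 ranged from -0.15 to 0.047. For WT IP against total RNA the count ran from 8 to 19 on leaving out a library, and Col5a1 and Col26a1 changed sign in those runs (-0.045 to 0.30 and -0.32 to 2.28). For KO it ran from 7 to 15, and Col3a1 (-0.15 to 0.22), Col4a1 (-0.40 to 0.040) and Col4a2 (-0.25 to 0.11) changed sign. Col3a1 was -0.0044 in a fit of KO libraries alone. With library size alone, KO Col4a1 was 0.26, Col4a2 0.35 and the median of the members 1.20 with 21 called, as the median of all genes moved to 0.47. For the interaction, 1 member was called without the low-count filter (Col7a1) and 3 with the replicate block. The cause of these changes was not tested. Whether equal numbers pair WT with KO could not be told. Correlations of same-numbered libraries were 0.11, -0.14 and -0.35 in total RNA and -0.06 in the IP. The IP value cannot show pairing or its absence, because the deviations of 2 libraries mirror each other. With the block 0 members were called in total RNA and 1 between the IPs. Leaving out a library of a group of 2 assumes that the lone library varies like the others. IP depth, the lowest being 917462 counts, limits the sparse members.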
